A study of Mus musculus with 18 samples.

Results

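Interleukins are the cytokines that white blood cells use to signal to each other, and the set described here holds their genes together with those of their receptors. Members were all non-control probes of the array whose gene name begins with Il and a number, leaving out Il2ra, Il2rb, Il7 and Il7r, and no measured value entered the choice. This gave 73 of 41174 probes, for 62 of 12312 named genes: 30 ligands, 31 receptors and 1 inhibitor, Il1rn. Classes were given by name, so Il1f5, an antagonist at the IL-36 receptor, was counted with the ligands. The RNA came from thymocytes, immature T cells still in the thymus, isolated by straining, washing and red cell lysis from C57BL/6 mice with no genetic change or treatment stated. The groups were 6 months, 16 months and 24 months, with 3 mice each in the Cy3 channel, and 1 month, the reference in the Cy5 channel of each of the 9 arrays. The design text calls the 1 month RNA a pool and the sample labels number 9 single mice, so the reference was treated as 1 control sample. No array had the dyes exchanged, so in every comparison with 1 month age and dye cannot be told apart, whereas between the older ages the dye is the same.

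An interleukin acts on cells that carry its receptor, usually a pair of chains of which the first is particular to the ligand and the second is shared within a family. The common gamma chain serves the receptors of IL-2, IL-4, IL-7, IL-9, IL-15 and IL-21 and passes its signal through janus kinases to STAT proteins, and IL-7 through this route keeps immature thymocytes alive. The IL-1 family, with IL-18 and IL-33, signals through Toll-like adaptors, and its receptors are known mainly from innate-like T cells, NK cells, helper T cells and non-lymphoid cells. Cytokines of the IL-17 and IL-22 groups mostly address epithelial cells, and IL-12, IL-23 and IL-27 come from dendritic cells and macrophages.

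In Cy3, 79.6% to 94.2% of features other than controls passed the scanner software's test of being well above background, lowest on 24 month replicate 2, and in Cy5 90.5% to 95.4% did. All 65 tested member probes passed in Cy5 on the 9 arrays and 57 of them also in Cy3, so no member was tested only because it was high in an older group. They covered 58 genes (28 ligands, 29 receptors and Il1rn). Il15, Il20, Il18rap and Il8ra (now Cxcr1) had no tested probe. No tested member probe was saturated. The probe with the highest mean signal stands for its gene below, and signals of different probes are not compared. On each array 314 negative control spots were read, and 55 of the 58 genes exceeded their 95th percentile in both channels on all 9 arrays; the exceptions were Il1rl2, Il22 and Il22ra2. Of 15 thymocyte markers, 13 were tested, and each of these passed in Cy3 on the 9 arrays. Markers of other cells that a thymus suspension can hold were also present, and their values are given beside some of the results.

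Values are log2 ratios of the older Cy3 over the 1 month Cy5 processed signal, so a positive value is higher in the older mouse. A gene is called higher or lower when limma's two-sided test on 3 arrays an age gave a Benjamini-Hochberg adjusted p under 0.05 over all 37448 tested probes. At 6 months 4 of the 58 genes were called, 6.9%, against 12.4% of all tested probes. Il1f6 was higher, and Il6, Il9r and Il22ra1 were lower, where 7.61% of all probes were called higher and 4.76% lower. At 16 months 8 genes were called, 13.8%, against 18% of all probes. The 5 that were higher, Il18r1, Il2rg, Il12rb1, Il17r and Il21r, were all receptors, and Il9r, Il22ra1 and the ligand Il28 were lower, with 11.4% of all probes higher and 6.59% lower. At 24 months 11 genes were called, 19%, against 24.9% of all probes. Here Il2rg, Il17r, Il1rapl2, Il23r, Il17, Il17b and Il27 were higher and Il22ra1, Il9r, Il24 and Il28 were lower, with 11.6% of all probes higher and 13.3% lower. In all, 16 genes were called in at least 1 comparison, and at each age the called share of the set lay below that of all probes. Before adjustment, limma's p was under 0.05 for 16, 22 and 19 of the 58 genes at 6, 16 and 24 months, where 31.1%, 34% and 40.4% of all probes had such a p. As a share, the members lay below all probes at 6 and 24 months and slightly above them at 16 months. Other scalings moved the balance of higher and lower calls: at 6 months it was 1 to 3 here, 3 to 4 with normexp and loess, 11 to 9 with normexp and median centring and 2 to 3 with centred processed signals, at 16 months 5 to 3 here and 4 to 6 with the authors' scores, and at 24 months 7 to 4 here and 20 to 19 with normexp and median centring. The counts also depend on single arrays. Without 6 month replicate 1 the count at 6 months was 1, and it was 0 without replicate 2 or replicate 3 and 1 without 16 month replicate 2, which also lowered the 16 genes called in any comparison to 10. At 16 months the count was 2 without replicate 1 and 1 without replicate 2, and at 24 months it was 4 without replicate 1 and 7 without replicate 2.

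**Figure D1:**
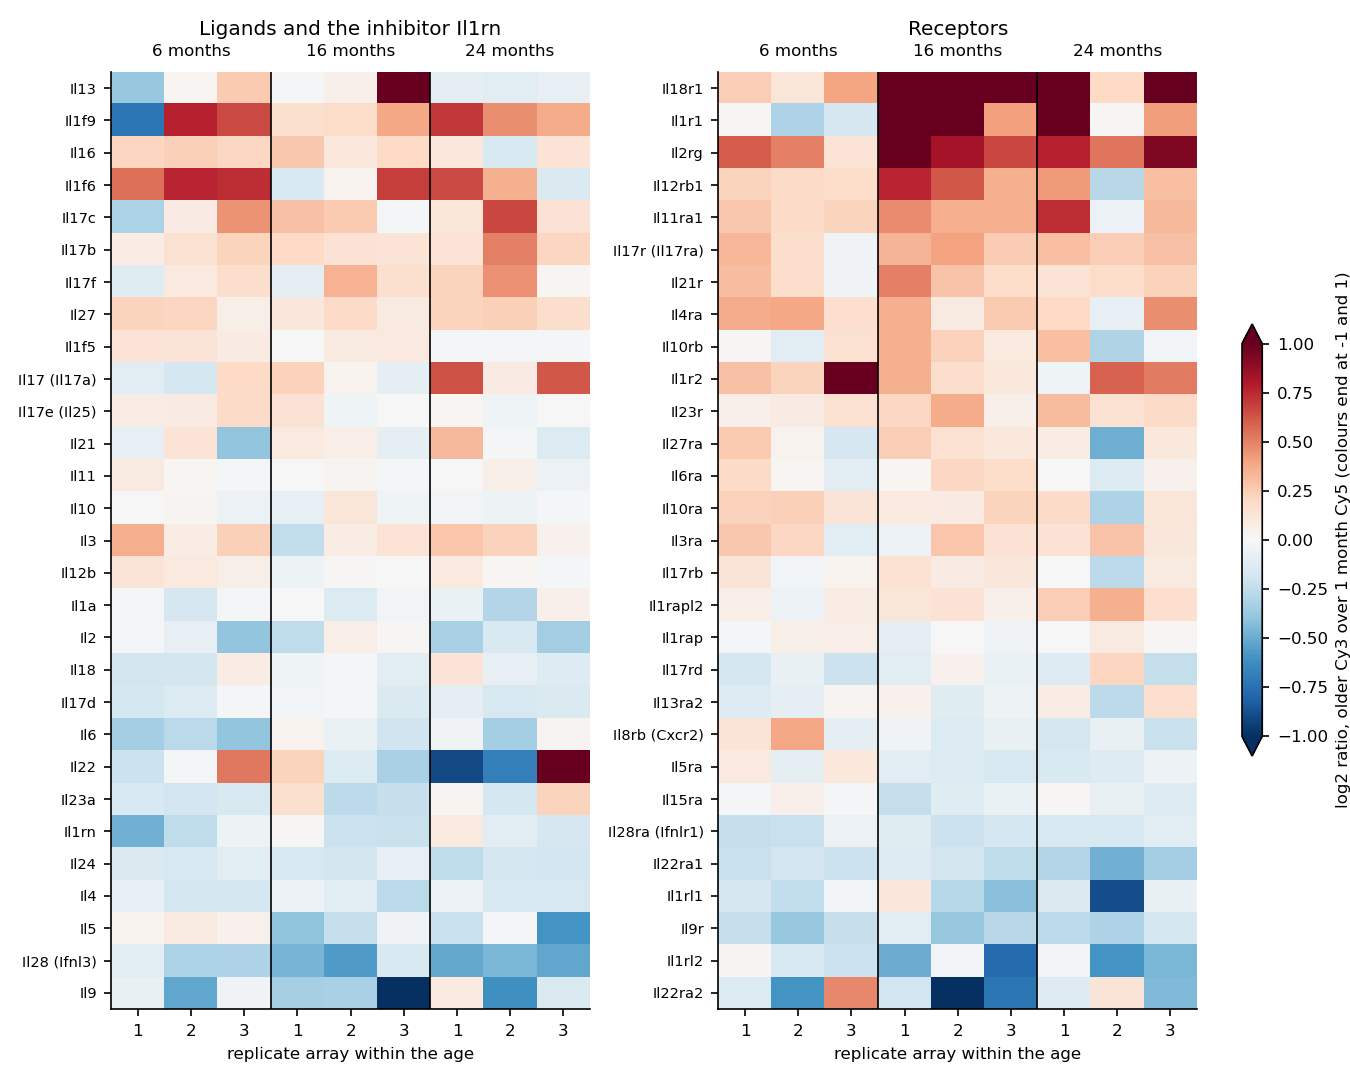
Log2 ratio of the older Cy3 signal over the 1 month Cy5 signal for the 58 tested genes (down the page, in order of their mean at 16 months) on each of the 9 arrays (across, 3 an age). Colours end at -1 and 1. Most cells are pale, and Il18r1, Il1r1 and Il2rg form the dark block at the top of the receptors at 16 months.

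Ligands and receptors were set side by side at each age. At 6 months 2 of 28 ligands (7.14%) and 2 of 29 receptors (6.9%) were called, against 12.4% of all tested probes. The median log2 ratio was 0.0098 for ligands and 0.038 for receptors. At 16 months 1 ligand (3.57%) and 7 receptors (24.1%) were called, against 18% of all tested probes. These 8 calls fell to 2 without 16 month replicate 1 and to 1 without replicate 2. The median was -0.0046 for ligands and 0.12 for receptors, while the median of all tested probes was -0.014. On the single arrays the receptor median at 16 months was 0.11, 0.093 and 0.096 and the ligand median -0.012, 0.030 and -0.018. At 24 months 5 ligands (17.9%) and 6 receptors (20.7%) were called, against 24.9% of all probes. The medians were -0.0093 for ligands and -0.0080 for receptors, against -0.020 for all probes. Array by array, the receptor median at 24 months was 0.071, -0.076 and 0.11 and the ligand median 0.021, -0.044 and -0.0097. At 6 months these were 0.096, 0.036 and 0.028 for receptors and -0.077, 0.026 and 0.059 for ligands. Single arrays at 6 and 24 months thus reached receptor medians like those at 16 months. The receptor median at 16 months was -0.037 with normexp and median centring, which corrects the raw signals for background and shifts each array by its median, with no dye correction that varies with intensity. No test of ligands against receptors was made.

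**Figure D2:**
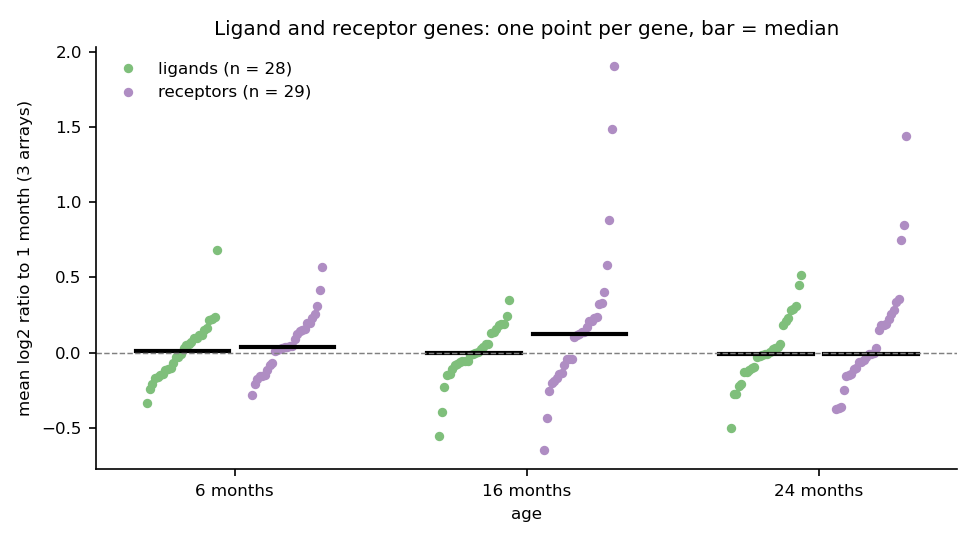
Mean log2 ratio to 1 month over 3 arrays, with 1 point a gene, for 28 ligands and 29 receptors at 6, 16 and 24 months; bars are medians. The receptors reach 1.90 at 16 months, where the highest ligand lies at 0.35, and the medians of both classes stay within 0.12 of zero.

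Il2rg, the common gamma chain on the X chromosome, was called higher at both older ages. Its log2 ratios were 0.61, 0.51 and 0.14 at 6 months, 1.14, 0.83 and 0.67 at 16 months and 0.78, 0.53 and 0.93 at 24 months. All 9 lay above 0, and the 3 arrays at 16 months lay above all 3 at 6 months. In Cy3 its processed signal was 2484 to 3288 at 16 months, against 1011 to 1651 in the 1 month Cy5 channels of all 9 arrays, with no overlap. The mean was 0.88 ± 0.12 at 16 months (SE from limma, n = 3), 1.84-fold, with an adjusted p of 0.00464, and 0.75 ± 0.12 at 24 months, 1.68-fold, with an adjusted p of 0.00691. At 6 months the mean of 0.42 was not called (adjusted p = 0.0613). Both calls were kept in all 9 fits that left out 1 array. The call at 24 months ended with centring in place of the dye correction (0.22, adjusted p = 0.226) and when only the 24 month arrays entered the fit (adjusted p = 0.0625).

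Among the receptor chains that pair with Il2rg the values were smaller and mixed. Il21r, the IL-21 receptor of T, B and NK cells, had log2 ratios of 0.31, 0.18 and -0.04 at 6 months, 0.51, 0.29 and 0.19 at 16 months and 0.14, 0.19 and 0.23 at 24 months. It was above 0 on 8 of 9 arrays, and it was called at 16 months only, 1.25-fold higher (0.33 ± 0.08, adjusted p = 0.0288). The direction turned under centring without the dye correction (-0.17, adjusted p = 0.473), and the call ended without 16 month replicate 1 (0.24, adjusted p = 0.128), replicate 2 (0.35, adjusted p = 0.116) or 6 month replicate 2 (adjusted p = 0.0515). Il9r, the IL-9 receptor chain, was below 0 on all 9 arrays, at -0.24, -0.38 and -0.23, then -0.11, -0.38 and -0.28, then -0.27, -0.31 and -0.18. It was called lower at each age, by -0.28 (adjusted p = 0.0294), -0.25 (adjusted p = 0.0299) and -0.25 (adjusted p = 0.0264), all with an SE of 0.06. Its sign also turned under that centring (0.037, 0.039 and 0.18), with normexp and loess the 24 month call ended (-0.064, adjusted p = 0.246), and each call ended without some array of its own age: any of the 3 at 6 months (adjusted p 0.07 to 0.174), replicate 2 or replicate 3 at 16 months (0.181 and 0.114), and replicate 1 or replicate 2 at 24 months (0.101 and 0.108). Il4ra, the chain that binds IL-4, was not called, with log2 ratios of 0.37, 0.39 and 0.17, then 0.36, 0.09 and 0.26, then 0.20, -0.09 and 0.46. Il15ra, which presents IL-15 to neighbouring cells, was not called either, at -0.01, 0.05 and -0.01, then -0.24, -0.12 and -0.07, then 0.01, -0.07 and -0.13. Under that centring Il15ra was called lower at 16 months (-0.33, adjusted p = 0.0279) and 24 months (-0.40, adjusted p = 0.00555). Neither gene set one age apart from the others.

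Il18r1, the ligand-binding chain of the IL-18 receptor, had the largest mean log2 ratio of the 58 genes at 16 and 24 months and the largest SD over the 9 arrays (1.07, against a median SD of 0.17). Its log2 ratios were 0.25, 0.12 and 0.39 at 6 months, 2.00, 2.70 and 1.01 at 16 months and 2.76, 0.20 and 1.35 at 24 months. At 16 months all 3 arrays lay above the 6 month arrays, whereas the 24 month arrays ran from inside the 6 month range to the highest value of all. In Cy3 the processed signal was 384 to 451 at 6 months, 756 to 2416 at 16 months and 296 to 1465 at 24 months, against 216 to 380 in the 1 month channels. The mean was 1.90 ± 0.45 at 16 months, 3.74-fold higher, with an adjusted p of 0.0255. It was 1.44 ± 0.45 at 24 months, which was not called (adjusted p = 0.0509). The call at 16 months ended without 16 month replicate 1 (1.86, adjusted p = 0.0922) or replicate 2 (1.50, adjusted p = 0.158) and when only the 16 month arrays were fitted (adjusted p = 0.0526), and without 24 month replicate 2 the value at 24 months was called (2.05, adjusted p = 0.0311).

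Il18r1 lies on chromosome 1 in a run of IL-1 receptor family genes, which in the RefSeq annotation follow each other between Map4k4 and Slc9a4 in the order Il1r2, Il1r1, Il1rl2, Il1rl1, Il18r1 and Il18rap. Il1r1, the signalling receptor for IL-1, is described here after its values were seen. Its log2 ratios were 0.01, -0.31 and -0.17 at 6 months, 1.54, 2.50 and 0.41 at 16 months and 2.11, 0.01 and 0.42 at 24 months, the second largest mean at both older ages. The same arrays were high as for Il18r1, 16 month replicates 1 and 2 and 24 month replicate 1, but no mean was called (1.49 ± 0.45 at 16 months, adjusted p = 0.0555, and 0.85 ± 0.45 at 24 months, adjusted p = 0.193). The other genes of the run did not follow these arrays. Il1r2, a decoy receptor that binds IL-1 without signalling, had 0.29, 0.23 and 1.18 at 6 months, 0.36, 0.18 and 0.11 at 16 months and -0.04, 0.59 and 0.52 at 24 months, with no call. Under centring without the dye correction Il1r2 was called higher at each age (0.56, 0.44 and 0.66, adjusted p 0.0163, 0.0304 and 0.00318). The 2 genes between Il1r1 and Il18r1 were mostly below 0: Il1rl2, the IL-36 receptor, had -0.50, -0.03 and -0.77 at 16 months, and Il1rl1, the IL-33 receptor, had 0.11, -0.29 and -0.42. Neither was called, and the Il1rl2 signal did not exceed the negative controls on every array.

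**Figure D3:**
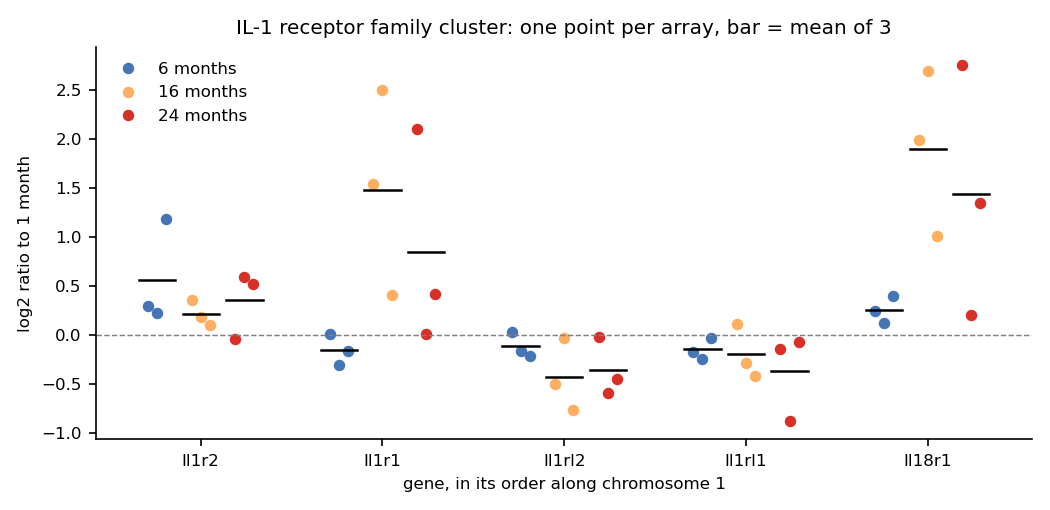
Log2 ratio to 1 month (vertical axis) for the 5 tested IL-1 receptor family genes in their order along chromosome 1, with 1 point an array and a bar for the mean of 3. Il18r1 and Il1r1 reach 2.76 and 2.50, while Il1rl2 and Il1rl1, which lie between them, stay at or below 0.11.

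The stretches of 250 bases before the annotated starts of Il18r1, Il1r1 and Il2rg are shown because these genes had the 3 largest means at 16 months. They are from RefSeq on build GRCm38.p6, read in the direction of the gene. Il18r1 has 3 annotated starts, of which the first (chr1:40465302-40465551, plus strand) and the third (chr1:40465756-40466005, plus strand) are given. Il1r1 has a distal start (chr1:40224830-40225079, plus strand) and a proximal one (chr1:40266336-40266585, plus strand), and Il2rg has 1 (chrX:101268256-101268505, minus strand). Capitals mark matches to TTCNNNGAA, the letters bound by STAT dimers.
Il18r1 start 1: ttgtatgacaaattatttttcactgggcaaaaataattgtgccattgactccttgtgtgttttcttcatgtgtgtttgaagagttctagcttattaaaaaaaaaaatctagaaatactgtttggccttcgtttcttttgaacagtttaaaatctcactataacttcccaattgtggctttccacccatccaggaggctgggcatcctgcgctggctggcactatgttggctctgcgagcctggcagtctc
Il18r1 start 3: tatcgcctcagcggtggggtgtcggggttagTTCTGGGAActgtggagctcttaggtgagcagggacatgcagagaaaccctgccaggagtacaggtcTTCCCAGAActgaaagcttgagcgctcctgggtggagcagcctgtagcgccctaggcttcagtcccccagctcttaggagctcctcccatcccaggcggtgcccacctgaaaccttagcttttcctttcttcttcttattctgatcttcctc
Il1r1 start 1: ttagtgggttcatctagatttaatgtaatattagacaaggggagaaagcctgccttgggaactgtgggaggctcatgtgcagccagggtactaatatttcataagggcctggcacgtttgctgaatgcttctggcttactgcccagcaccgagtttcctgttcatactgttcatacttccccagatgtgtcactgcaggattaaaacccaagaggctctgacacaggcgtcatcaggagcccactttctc
Il1r1 start 2: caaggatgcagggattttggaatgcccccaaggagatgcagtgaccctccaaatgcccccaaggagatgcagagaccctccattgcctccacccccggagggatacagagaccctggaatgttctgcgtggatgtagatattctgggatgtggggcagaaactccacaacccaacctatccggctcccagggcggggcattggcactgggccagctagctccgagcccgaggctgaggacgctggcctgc
Il2rg start 1: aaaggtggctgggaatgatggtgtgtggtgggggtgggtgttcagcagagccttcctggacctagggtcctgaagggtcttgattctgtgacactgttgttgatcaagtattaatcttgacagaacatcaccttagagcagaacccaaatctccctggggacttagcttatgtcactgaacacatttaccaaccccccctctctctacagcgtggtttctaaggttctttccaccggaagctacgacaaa

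The third Il18r1 window holds 2 such matches, 219 and 152 bases before the start, and the other printed windows hold none. The letters read the same on both strands, and 7.02% of 32851 mouse windows of this length hold at least 1. AGGTCA, a nuclear receptor half-site that 14% of the windows hold on either strand, and AGGTGTGA, a T-box half-site that 1.12% hold, were found in none of the printed windows. A match describes letters only, and no binding was measured.

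Markers of other cells differed between the arrays as well, and their values stand here beside those of Il18r1 and Il1r1. The list of NK and innate-like T cell markers, cells known to carry the IL-18 receptor, had 12 of 14 genes tested, 9 of them above background in the Cy3 channel of each array. Its mean log2 ratio was 0.16, 0.13 and 0.21 at 6 months, 1.03, 0.81 and 0.40 at 16 months and 0.51, 0.26 and 0.65 at 24 months. At 16 months 5 of the 12 were called higher, where 11.4% of all probes were. Among them were the chemokine receptor Cxcr6 (2.95 ± 0.29, adjusted p = 0.00195), the granule protein Nkg7 (1.45 ± 0.18, adjusted p = 0.00322) and the receptor Klrk1 (1.40 ± 0.18, adjusted p = 0.00349), while Tbx21 and Gzma were at 0.02 and 0.01. At 24 months 4 of the 12 were called higher and Prf1 lower, with 11.6% of all probes higher and 13.3% lower. The fall of Prf1 turned to a rise under centring without the dye correction (0.42). Summed over the list, the Cy3 signal was 30082 to 35287 at 6 months, 38373 to 53475 at 16 months and 24231 to 43655 at 24 months, against 23125 to 36578 in the 1 month channels.

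For macrophage and dendritic cell markers (12 of 16 tested, all 12 above background in each Cy3 channel) the mean log2 ratio was -0.03, 0.03 and -0.03 at 6 months, 0.50, 0.65 and 0.35 at 16 months and 0.85, 0.10 and 0.49 at 24 months. At 16 months 3 of the 12 were called higher, where 11.4% of all probes were. They were the antigen-presenting H2-Ab1 (1.83, adjusted p = 0.00269), Lyz1 (1.29) and Lyz2 (0.99). Csf1r and Cd68 were at 0.06 and -0.02, and C1qa, C1qb and C1qc were not called (0.65, 0.19 and 0.48). At that age the summed Cy3 signal of the list was 55258 to 92297, against 26659 to 44299 in the 1 month channels. It was 30769 to 36153 at 6 months and 28280 to 89856 at 24 months. For stroma and fat markers (12 of 14 tested, 11 well above background throughout) the mean was 0.04, 0.09 and 0.15, then 0.25, 0.35 and 0.20, then 0.74, 0.10 and 0.22, highest on 24 month replicate 1, where Il18r1 was also highest. Their summed Cy3 signal was 10808 to 14672 at 6 months, 15550 to 18987 at 16 months and 9525 to 21136 at 24 months, against 8753 to 14068 in the 1 month channels. For B and plasma cell markers (13 of 14 tested, 11 above background in each Cy3 channel) the mean was 0.12, -0.03 and 0.01, then 0.72, 0.54 and 0.28, then 0.52, 0.10 and 0.45. Of the 13, 5 were called higher at 16 months, where 11.4% of all probes were. Their summed Cy3 signal was 15082 to 19812 at 6 months, 22931 to 41309 at 16 months and 13551 to 29858 at 24 months, against 11536 to 18114 in the 1 month channels.

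The 16 month replicate 2 array, where Il1r1 was highest, stood apart in granulocyte and mast cell markers (13 of 13 tested, 8 above background in each Cy3 channel). Their mean log2 ratio was 0.93 there and -1.39 to -0.46 on the other 8 arrays, and their summed Cy3 signal was 130285 there and 14139 to 23990 on the others, against 29017 to 50217 in the 1 month channels. On 24 month replicate 1, where Il18r1 was highest, this mean was -1.09. Without 16 month replicate 2 the 16 month mean of Il18r1 was 1.50 (adjusted p = 0.158). For erythroid markers, the mean log2 ratio of 4 haemoglobin probes was -1.93, -1.85 and -1.16 at 6 months and 1.78, 1.18 and -0.71 at 16 months. At 24 months it was -1.79, 0.34 and 1.27, lowest on replicate 1, where Il18r1 was highest. With this haemoglobin mean as a covariate Il18r1 stayed called at 16 months (2.00, adjusted p = 0.0492). The part of these cells in the Il18r1 and Il1r1 values was not tested, and in bulk RNA more cells of a type and more RNA per cell cannot be told apart.

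**Figure D4:**
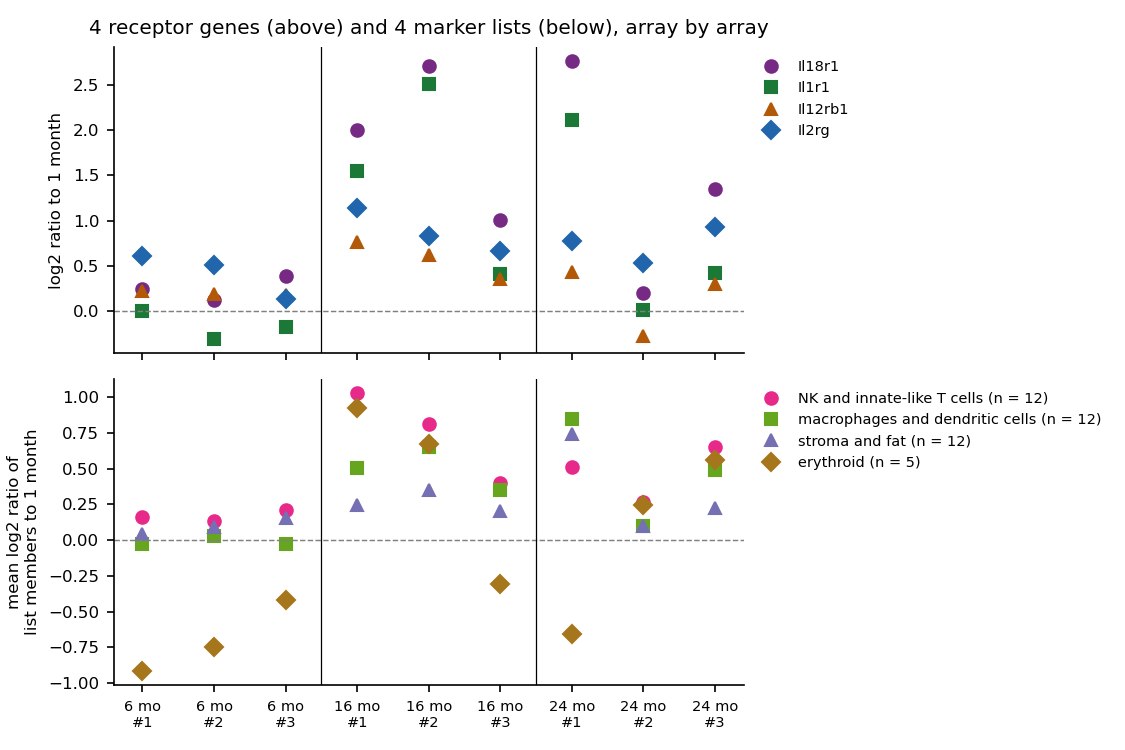
Log2 ratio to 1 month of Il18r1, Il1r1, Il12rb1 and Il2rg (upper plot) and mean log2 ratio of the tested members of 4 marker lists (lower plot) on each of the 9 arrays (mo, months; # replicate). Among the 16 and 24 month arrays, 24 month replicate 2 lies lowest for all 4 genes, with Il18r1 at 0.20 and Il12rb1 at -0.27. It is also lowest for the NK (0.26), macrophage (0.10) and stroma (0.10) lists, but not for the erythroid list. This array had the lowest share of Cy3 features above background (79.6%). The NK list lies lower still on the 6 month arrays. The 24 month replicate 1 array is high for Il18r1 (2.76) with the erythroid list at -0.66.

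Receptors of the IL-12 family are carried by T and NK cells. Il12rb1, the chain shared by IL-12 and IL-23, had log2 ratios of 0.22, 0.19 and 0.18 at 6 months, 0.76, 0.62 and 0.36 at 16 months and 0.43, -0.27 and 0.30 at 24 months. The 16 month arrays lay above the 6 month arrays, and the 24 month arrays fell on both sides of 0. The 16 month mean was called, 1.49-fold higher (0.58 ± 0.13, adjusted p = 0.0214). The call ended without 16 month replicate 1 (0.49, adjusted p = 0.0978) or replicate 2 (0.56, adjusted p = 0.118), with the haemoglobin covariate (adjusted p = 0.051), and under centring without the dye correction (0.17, adjusted p = 0.311). Il23r, the partner of Il12rb1 in the IL-23 receptor, was above 0 on all 9 arrays, at 0.05, 0.08 and 0.15, then 0.21, 0.37 and 0.05, then 0.32, 0.15 and 0.19. The 24 month mean was called (0.22 ± 0.07, adjusted p = 0.0442), a call kept in only 2 of the 9 fits without 1 array (without 16 month replicate 2 or replicate 3) and turned to -0.14 by that centring. Il27ra, the IL-27 receptor chain, was not called, at 0.26, 0.04 and -0.17, then 0.24, 0.15 and 0.11, then 0.07, -0.49 and 0.11. Its lowest value lay on 24 month replicate 2, as did that of Il12rb1.

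The IL-17 receptor genes split. Il17r, now Il17ra, the chain shared by most IL-17 cytokines, had log2 ratios of 0.33, 0.18 and -0.04 at 6 months, 0.34, 0.40 and 0.25 at 16 months and 0.30, 0.25 and 0.30 at 24 months. All 6 arrays of the older ages lay above 0 and close together. It was called at 16 months, 1.26-fold higher (0.33 ± 0.07, adjusted p = 0.0178), and at 24 months, 1.22-fold (0.28 ± 0.07, adjusted p = 0.025). Under centring without the dye correction the sign turned (-0.060 and -0.29). The first call ended without 16 month replicate 1 (0.33, adjusted p = 0.0665) or replicate 2 (0.29, adjusted p = 0.116) and the second without any array of 24 months (adjusted p 0.0728 to 0.0978). Il17rb, the IL-25 receptor, known in mouse thymus from a subset of NKT cells, was not called, at 0.13, -0.03 and 0.03, then 0.16, 0.08 and 0.12, then -0.01, -0.26 and 0.09. Under that centring Il17rb was called lower at 24 months (-0.27, adjusted p = 0.0309). Il1rapl2, an IL-1 receptor-like protein known from the nervous system, had 0.06, -0.06 and 0.08, then 0.12, 0.14 and 0.05, then 0.25, 0.35 and 0.17. It was called at 24 months (0.26 ± 0.05, adjusted p = 0.0139), where the 3 arrays lay above all others. The call ended without 24 month replicate 1 (0.26, adjusted p = 0.0597) or replicate 2 (0.21, adjusted p = 0.0639) and with normexp and loess (0.14, adjusted p = 0.0542).

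In the IL-10 receptor family, Il22ra1 was lower in the older mice. It is the IL-22 receptor chain of epithelial cells. Its log2 ratios were -0.23, -0.19 and -0.22 at 6 months, -0.13, -0.18 and -0.25 at 16 months and -0.29, -0.48 and -0.35 at 24 months, all below 0. It was called at 6 months (-0.21 ± 0.05, adjusted p = 0.0354), at 16 months (-0.19 ± 0.05, adjusted p = 0.0381) and at 24 months (-0.37 ± 0.05, adjusted p = 0.00419), where it fell furthest, 1.30-fold. The call at 24 months was kept in all 9 fits without 1 array and ended when only the 24 month arrays were fitted (adjusted p = 0.0779). At 6 months it ended without any array of that age (adjusted p 0.105 to 0.151) or without 16 month replicate 2 (0.0579), and at 16 months it was kept only without 24 month replicate 1 or replicate 2. Some thymic epithelium markers were lower as well. Of 9 tested, 6 were called lower at 6 months, 3 at 16 months and 2 at 24 months, where 4.76%, 6.59% and 13.3% of all probes were. The mean log2 ratio of the 9 was -0.94, -0.80 and -0.83 at 6 months, -0.55, -0.59 and -0.72 at 16 months and 0.05, -0.63 and -0.38 at 24 months. Il22ra1 lay lowest at 24 months and the epithelial list at 6 months, and the part of epithelial cells in the Il22ra1 values was not tested. Il28ra, the interferon lambda receptor, was also below 0 on all 9 arrays (-0.24 to -0.06) and was not called. Il10ra, the IL-10 receptor, was not called, at 0.23, 0.24 and 0.13, then 0.10, 0.08 and 0.22, then 0.19, -0.31 and 0.12. It was above 0 on 8 arrays, the exception being 24 month replicate 2.

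**Figure D5:**
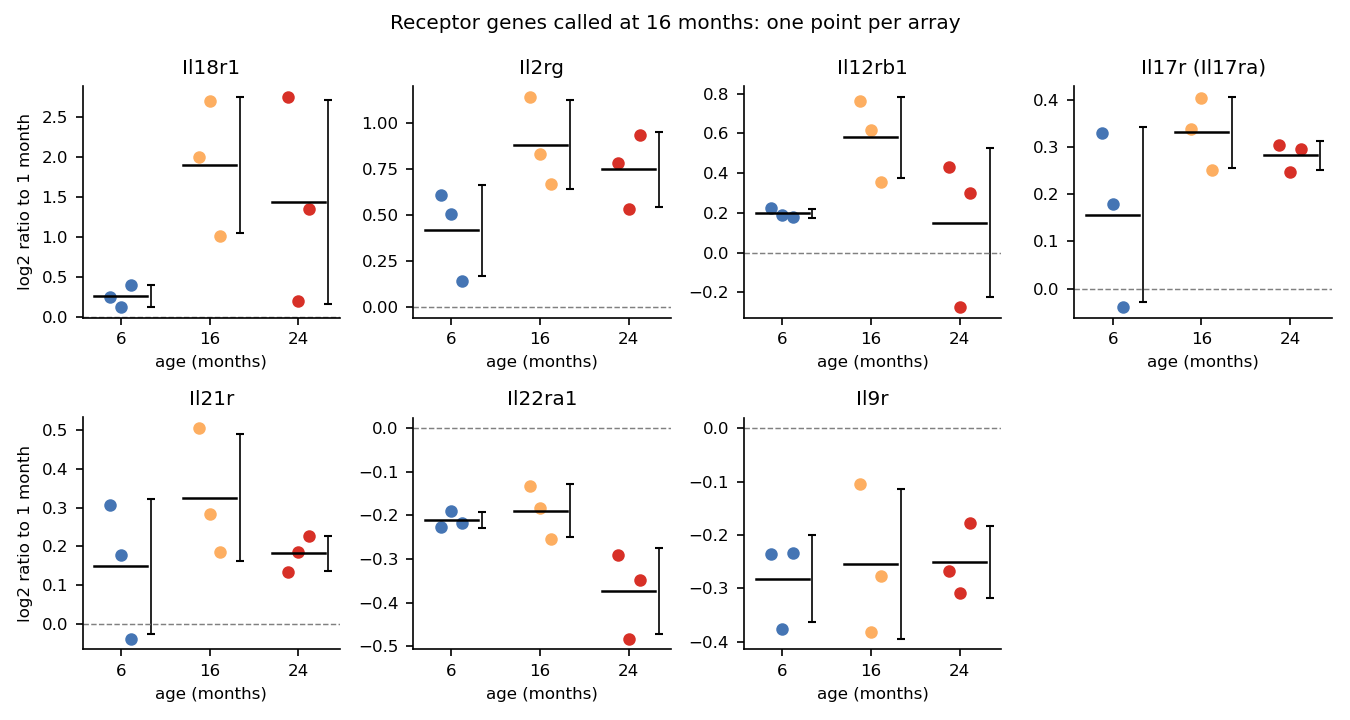
Log2 ratio to 1 month of the 7 receptor genes called at 16 months, with 1 point an array, the mean as a bar and the SD over 3 arrays as a line beside it. The vertical axes differ: Il18r1 spans 0.12 to 2.76, while Il22ra1 and Il9r lie between -0.48 and -0.11, below the dashed line at 0 throughout.

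Among the ligands the called means lay between -0.50 and 0.68. Il1f6, the epithelial cytokine IL-36 alpha, had log2 ratios of 0.55, 0.76 and 0.74 at 6 months, -0.15, 0.03 and 0.69 at 16 months and 0.66, 0.36 and -0.14 at 24 months. It was called higher at 6 months (0.68 ± 0.18, adjusted p = 0.0477), with Cy3 signals of 427 to 486, against 262 to 405 in the 1 month channels. That call was kept in 3 of 9 fits without 1 array and ended without any 6 month array (0.64 to 0.75, adjusted p 0.12 to 0.205), without 16 month replicate 2 (0.0693) and without 24 month replicate 1 (0.0514) or replicate 2 (0.0571). With the haemoglobin covariate it was 0.24 (adjusted p = 0.383). Il6, a fever and acute-phase cytokine, had -0.34, -0.27 and -0.40 at 6 months, then -0.20 to 0.04 at 16 months and -0.34 to 0.03 at 24 months, and was called lower at 6 months (-0.34 ± 0.08, adjusted p = 0.0329). Its sign turned under centring without the dye correction (0.051), and the call ended without any 6 month array (adjusted p 0.115 to 0.128), without 16 month replicate 2 (0.0541) and with the haemoglobin covariate (0.263).

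At 24 months 2 of 6 tested IL-17 ligands, cytokines of helper T cells and epithelia, were called higher, where 11.6% of all probes were. Il17 (Il17a) had log2 ratios of -0.10, -0.18 and 0.20 at 6 months, 0.23, 0.04 and -0.10 at 16 months and 0.64, 0.08 and 0.62 at 24 months. Its Cy3 signal at 24 months was 167 to 209, against 121 to 234 in the 1 month channels of the 9 arrays, so the signals overlap across arrays although each ratio was above 0. The mean of 0.45 ± 0.12 was 1.37-fold (adjusted p = 0.035), and the call ended without 24 month replicate 1 (0.35, adjusted p = 0.156) or replicate 3 (0.36, adjusted p = 0.132), 6 month replicate 2 (0.051) or 16 month replicate 2 (0.0542). Il17b was above 0 on all 9 arrays, at 0.07, 0.15 and 0.22, then 0.20, 0.14 and 0.14, then 0.13, 0.50 and 0.22. Only the 24 month mean was called (0.28 ± 0.07, adjusted p = 0.0266), a call that ended without 24 month replicate 2 (0.17, adjusted p = 0.0925) or replicate 3 (0.32, adjusted p = 0.0515).

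The last 3 called ligands belong to the IL-12 and IL-10 families. Il27, the p28 chain of IL-27, was above 0 on all 9 arrays, at 0.22, 0.22 and 0.06, then 0.12, 0.19 and 0.09, then 0.22, 0.24 and 0.17. It was called at 24 months (0.21 ± 0.05, adjusted p = 0.021), but lower under centring without the dye correction (-0.42, adjusted p = 0.0173), and the call ended without 24 month replicate 1 (adjusted p = 0.0851) or replicate 2 (0.0817). Il28 (now Ifnl3), an antiviral interferon lambda, was below 0 on all 9 arrays, at -0.11, -0.32 and -0.31, then -0.46, -0.57 and -0.15, then -0.52, -0.46 and -0.52. It was called lower at 16 months (-0.39 ± 0.08, adjusted p = 0.0169) and at 24 months (-0.50 ± 0.08, adjusted p = 0.00707), the second being 1.41-fold. The call at 24 months was kept in all 9 fits without 1 array, that at 16 months ended without replicate 1 (-0.36, adjusted p = 0.0746) or replicate 2 (-0.31, adjusted p = 0.112), and under that centring both ended (-0.09 and -0.06). Il24, an IL-10 family cytokine, was also below 0 throughout, at -0.15, -0.16 and -0.12, then -0.16, -0.19 and -0.08, then -0.25, -0.18 and -0.19. The mean at 24 months was called (-0.21 ± 0.04, adjusted p = 0.0143), and the call ended without 24 month replicate 1 (-0.18, adjusted p = 0.0762).

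Il16, Il4 and Il18 were not called by the probes that stand for them. Il16, a chemoattractant for CD4+ cells, had log2 ratios of 0.22, 0.24 and 0.20 at 6 months, 0.27, 0.11 and 0.20 at 16 months and 0.11, -0.15 and 0.14 at 24 months. The 6 month mean of 0.22 had an adjusted p of 0.0617. With normexp and loess Il16 was called higher at 6 months (0.21, adjusted p = 0.0374) and 16 months (0.18, adjusted p = 0.0471). Il4, the cytokine of type 2 helper and NKT cells, was below 0 on all 9 arrays without a call, at -0.08, -0.18 and -0.18, then -0.06, -0.11 and -0.27, then -0.06, -0.16 and -0.16. Il18, the ligand of Il18r1, was at -0.19, -0.19 and 0.07, then -0.05, -0.01 and -0.11, then 0.14, -0.08 and -0.13, with no order by age. With normexp and median centring Il18 was called lower at each age (-0.28, -0.25 and -0.31, adjusted p 0.0263, 0.0431 and 0.0104). Il1rn, the IL-1 receptor antagonist and the only gene classed here as an inhibitor, averaged -0.26, -0.14 and -0.06 at 6, 16 and 24 months with adjusted p of 0.098, 0.31 and 0.666. The other 18 tested ligands had means of -0.21 to 0.24 at 6 months, -0.56 (Il9) to 0.35 (Il13) at 16 months and -0.28 (Il5) to 0.52 (Il1f9) at 24 months, and their smallest adjusted p was 0.0595. The 14 tested receptors not called or named in advance, Il1r1 among them, had means of -0.17 to 0.23 at 6 months, -0.65 (Il22ra2) to 1.49 (Il1r1) at 16 months and -0.37 (Il1rl1) to 0.85 (Il1r1) at 24 months. Il11ra1 of this group, a receptor of stromal cells, was highest on 24 month replicate 1 (0.74) and lowest on replicate 2 (-0.06).

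For 7 genes more than 1 probe was tested, and the weaker probe did not always give the value of the stronger one. The second Il16 probe was higher on every array, at 0.96, 0.73 and 0.71, then 0.94, 0.99 and 0.84, then 0.81, 0.68 and 0.96, and was called at each age (0.80, 0.93 and 0.82, adjusted p 0.0032, 0.00122 and 0.00193), where the first probe ran from -0.15 to 0.27. The second Il17r probe was likewise higher on all 9 arrays (0.51 to 0.81) and was called at each age (0.64, 0.69 and 0.67). The second Il8rb (Cxcr2) probe was called higher at 6 months (0.65, adjusted p = 0.0166) and 24 months (0.74, adjusted p = 0.00642), while the first averaged 0.14 and -0.15. The Il1r2 probes had means of opposite sign, without a call. These second probes are described after their values were seen, and the files do not say which transcripts each probe reads.

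Between the older ages, where the dye is the same, no member gene and 0% of the 37448 probes passed limma's adjusted threshold in any of the 3 contrasts. An unadjusted p under 0.05 was reached by 4 of the 58 member genes at 16 against 6 months, 3 at 24 against 6 months and 2 at 24 against 16 months. Of all probes 6.38%, 9.11% and 4.77% reached it. The shares of the members were close to or below these, so the counts do not set the members apart. The 4 were Il18r1 (1.65 ± 0.64), Il1r1 (1.64 ± 0.63), Il2rg (0.46 ± 0.17) and Il6 (0.26 ± 0.11), all higher at 16 months. At 24 against 6 months they were Il17 (0.48), Il1rapl2 (0.23) and Il8rb (-0.30), and at 24 against 16 months Il12rb1 (-0.43) and Il22ra1 (-0.18). The smallest adjusted p of a member was 0.769, 0.497 and 0.862 in these contrasts. With 3 arrays an age, these adjusted p do not show that the older ages were alike.

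Other genes of the same signalling routes were counted from lists. Of 11 janus kinases and STATs, all tested, 2 were higher at 6 months, 4 at 16 months and 2 at 24 months, and none was lower. With normexp and median centring this balance turned, to 1 higher and 2 lower at 6 months, 1 and 1 at 16 months and 1 and 4 at 24 months. Stat5a, which acts below the common gamma chain, was higher at each age (0.58, 0.55 and 0.59, SE 0.12, adjusted p 0.0244, 0.021 and 0.0142), and so was Stat6, the IL-4 route (0.41, 0.35 and 0.24). Jak3, named here only because it is the kinase bound to Il2rg, was not called (0.08, 0.48 and 0.21), and Stat4, the IL-12 route, was called at 16 months only (0.35, adjusted p = 0.0351), as was Jak2 (0.27). Under centring without the dye correction Stat4 (-0.0034) and Jak2 (-0.10) at 16 months and Stat5a (-0.24) and Stat6 (-0.04) at 24 months no longer lay above 0.

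Among 16 SOCS and other brakes on cytokine signalling, all tested, 2 were lower at 6 months, 1 was higher and 1 lower at 16 months, and 2 were higher and 1 lower at 24 months. With normexp and median centring 2 were higher and 6 lower, then 1 and 5, then 3 and 9. Ptpn2, a phosphatase acting on janus kinases, was lower at each age (-0.31, -0.34 and -0.49, adjusted p 0.0304, 0.0184 and 0.00517). Cish, a feedback target of STAT5, was lower at 6 months (-0.62, adjusted p = 0.0478) and at 0.03 and -0.08 later, while Sh2b3 was higher at 16 and 24 months (0.50 and 0.41), and Socs7 at 24 months (0.41). Of the IL-1 and Toll receptor adaptors 5 of 13 were tested: Tollip was higher at 6 months (0.35) and 16 months (0.61), and Irak1 at 16 months (0.43) and 24 months (0.31), the last at -0.11 under that centring. Of 20 receptor partners and related cytokines 18 were tested, with no call at 6 months, 1 at 16 months (Lifr, -0.14) and 3 at 24 months: Ctf1 (0.80) and Lif (0.17) were higher and Csf3r lower (-0.36), and under that centring Lif was at -0.34 and Csf3r at 0.07. That centring gave the list 2 higher and 6 lower calls at 6 months, 1 and 3 at 16 months and 4 and 6 at 24 months. Ifnlr1 of this list is the member Il28ra under its current name, so that gene was counted in both. Csf3r is also among the 13 granulocyte and mast cell markers, of which 4 were called lower at 24 months. The shares of all probes called, given above, are the background of these counts too.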

How the data were processed

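RNA of mouse thymocytes was measured on 9 Agilent 2-colour arrays, 3 each at 6, 16 and 24 months (Cy3) against 1 month (Cy5). The 18 channels are the samples, and both files of each array were identical. Per the file headers, the deposited intensity values are processed signals that the authors' software (Agilent Feature Extraction 7.5.1, or 7.1 per the submitters' processing notes) had background-subtracted and dye-normalized by LOWESS (smooth factor 0.25). The authors also deposited a score for each probe and channel, found here to equal the log10 processed signal as a z-score over that channel. The genome build of the probe design is not given in the sources used here.

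Spots marked as outliers (34 to 179 an array, most on 24 month replicates 1 and 3) were dropped and duplicate spots averaged. Testing needed a signal well above background on every Cy3 array of some age or in Cy5 throughout, which left 37448 probes. In limma 3.58.1 (R 4.3.3), 1 model held the mean log2 ratio of Cy3 over Cy5 at each age, two-sided, with empirical Bayes (prior df 1.94, residual df 6) and Benjamini-Hochberg adjustment over all probes at 0.05. It was tested on simulated data. An age is tested against 0. If the 1 month RNA was a pool, this leaves out the spread among 1 month mice. If each array held a single 1 month mouse, that spread is part of the ratios. The number of arrays limits the precision. Genes named were all those called, a short list of thymus-related members whatever their values, and up to 4 called genes of each pathway list; marker genes and others were named after their values were seen. Probe names were updated through RefSeq by accession (11450 probes), file symbol (2296) or synonym (1307). Promoters came from RefSeq GRCm38.p6, with an entry for 48 of the 62 genes. Tables were made in Python 3.11.15 with pandas 2.3.3 and numpy 2.4.6, and plots with matplotlib 3.10.9.

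The members, lists and tests were chosen with earlier results of these data known. Alternatives were normexp (offset 50) with loess, normexp with median centring, median-centred processed signals, the authors' scores, 2 other probe filters, fits of only the ages compared, a haemoglobin covariate, the replicate number as a block, and leaving out each array.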

Additional observations from a re-analysis of the deposited data

Results flagged for a closer look

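Il16 had a 1 month Cy5 signal of 11484 on the array of 24 month replicate 2, against 15444 to 20179 on the other 8 arrays, a gap that is 0.526 of the whole range on the log2 scale. The 25 genes named by rule were searched in this way, and chance gives about 1 such gap in 20. The Cy3 signal of Il16 was also lowest on this array (10332), which had the lowest share of features above background, and its log2 ratio there was -0.15.

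Il5, the eosinophil growth factor, was above 0 on all 3 arrays at 6 months (0.04, 0.09 and 0.05) and below 0 on all 3 at 16 months (-0.40, -0.24 and -0.04) and at 24 months (-0.22, -0.01 and -0.60). The difference was -0.28 at 16 against 6 months (adjusted p = 0.77) and -0.33 at 24 against 6 months (adjusted p = 0.563), neither past the threshold of limma's contrast. Il1f5, an antagonist at the IL-36 receptor, showed the same split of signs at 24 months (-0.02, -0.01 and -0.01), against 0.14, 0.13 and 0.08 at 6 months, a difference of -0.13 (adjusted p = 0.558). The second tested Il1f5 probe had no such split, with 1 of 3 arrays above 0 at 24 months (0.63) and 1 of 3 at 6 months (0.02), and its difference ran the other way, at 0.13 (adjusted p = 0.93). All 58 genes were searched for such a split.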

How the results depend on the processing

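Counts of member genes called at 6, 16 and 24 months against 1 month and in any comparison were 4, 8, 11 and 16 as reported. They were 7, 14, 11 and 20 with normexp and loess (sharing 4, 8, 9 and 15 genes with those reported), 20, 19, 39 and 40 with normexp and median centring, 8, 13, 12 and 20 with the stricter filter, 0, 6, 10 and 12 with the haemoglobin covariate, and 1, 4, 0 and 5 when only the arrays of that age were fitted; limma's unadjusted p was under 0.05 for 6 genes in the first of these zeros and 14 in the second. Median-centred processed signals gave 5, 9, 12 and 18, the authors' scores 6, 10, 13 and 17, and no filter 3, 8, 11 and 15. Leaving out 1 array gave 0 to 6, 1 to 12, 4 to 11 and 10 to 17. The contrasts among older ages stayed at 0 in every fit run.

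Higher against lower calls over all probes were 2851 to 1781, 4277 to 2469 and 4357 to 4978 at 6, 16 and 24 months as reported. They were 9140 to 10488, 6868 to 9792 and 11662 to 14907 with normexp and median centring, 4852 to 4272 at 16 months with normexp and loess, and 2475 to 2788 and 3476 to 4132 at 6 and 16 months with the scores. Before centring, its array medians lay between -1.89 and -0.14.

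Of the 23 called values, 21 were kept with normexp and loess, 23 with centred processed signals, 22 with the scores, 21 without filter and 4 with single ages, none reversed. With normexp and median centring 10 were kept, and 13 values changed sign with a call on either side: Il16 at 24 months (-0.97), Il17 at 6 months (0.60), Il17r at 16 and 24 months (-0.060 and -0.29), Il21r at 16 and 24 months (-0.17 and -0.60), Il23r (-0.14) and Il27 (-0.42) at 24 months, Il6 at 6 and 24 months (0.051 and 0.33), and Il9r at 6, 16 and 24 months (0.037, 0.039 and 0.18). The cause was not tested.

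The replicate block gave 1, 7, 10 and 13 calls. Same-numbered arrays correlated between -0.31 and 0.10 in their deviations from the age means, and 2 of 9 arrays correlated best with their own number, so the arrays share only a number. The slide and scan day as a block was not run: each slide held 1 array, and the files gave no scan day. Dim probes near the negative controls (Il22, Il22ra2, Il1rl2) carry the least precise ratios.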

Other observations

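Some member genes were far from the rest on a single array. Il22, a cytokine of innate lymphoid and helper T cells, had log2 ratios of -0.90, -0.68 and 1.56 at 24 months, with Cy3 signals of 93.2, 62.2 and 498, against Cy5 signals of 174, 99.9 and 169 on the same arrays. Il13, a type 2 cytokine, was at 1.03 on 16 month replicate 3 (Cy3 signal 1654, Cy5 signal 812) and between -0.38 and 0.27 on the other 8 arrays. On the same 16 month array Il9 was at -1.01, its lowest value, with a Cy3 signal of 72.6 and a Cy5 signal of 147. Il1f9, the cytokine IL-36 gamma, was at -0.73 on 6 month replicate 1 and between 0.16 and 0.78 elsewhere. Il1r2 was at 1.18 on 6 month replicate 3 and at most 0.59 elsewhere. These values rest on 1 mouse each and were picked after being seen.

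Some of the 58 tested genes had ratios of 1 sign on all 9 arrays. The share of all tested probes that did so was not counted, so this does not set the members apart. Il17b, Il18r1, Il23r, Il27 and Il2rg were above 0 throughout, and Il4, Il9r, Il17d, Il22ra1, Il24, Il28 and Il28ra were below 0 throughout. All 9 arrays share the 1 month reference and the same dye orientation.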
